A study of Mus musculus with 15 samples.

Results

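Of the 38595 DNase I hypersensitive sites (DHS, stretches of open chromatin) called in enterocyte progenitors (Ent-Pro) of the mouse intestine, 10813 (28.0%) were overlapped neither by a DHS of secretory progenitors (Sec-Pro) nor by a peak of ATOH1. These 10813 enterocyte-only open sites without ATOH1, called Ent-Pro-only sites here, were selected on measured values, namely on the presence or absence of peaks in the deposited DHS lists of Ent-Pro and Sec-Pro and in the ATOH1 list of Sec-Pro, with 1 bp as the least overlap. The other Ent-Pro DHS were 22512 sites shared with Sec-Pro and without ATOH1, 4573 shared sites with ATOH1, and 697 sites absent from the Sec-Pro list but overlapped by ATOH1. Leaving ATOH1 aside, 29.8% of all Ent-Pro DHS had no Sec-Pro DHS, a share that the selection itself fixed.

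The peaks came from chromatin immunoprecipitation (histone marks, ATOH1) and DNase digestion of intestinal epithelium of C57BL/6 mice, 1 list per library. Ent-Pro came from crypts, and mature enterocytes (ENT) from villi, of Atoh1-/- mice, which lack all secretory cells. Sec-Pro came from crypts after Rbpj deletion (H3K4me2 replicate 1) or under dibenzazepine (DBZ), an inhibitor of Notch signalling (H3K4me2 replicate 2). The labels do not say which of these preparations gave the Sec-Pro lists of DHS, H3K27ac and ATOH1. Goblet cells (GOB) came from villi of Rbpj-/- mice, and intestinal stem cells (ISC) were sorted by green fluorescence from Lgr5-eGFP-Cre mice. ATOH1 was precipitated with an antibody against the FLAG tag, and the tagged allele is not named in the labels. Neither the driver nor the timing of the deletions is given in the labels, so lineage and the genotype or treatment behind it cannot be told apart. H3K4me2 was mapped in 7 libraries (ISC 1, Sec-Pro 2, Ent-Pro 2, GOB 1, ENT 1), H3K27ac in 1 library each of Sec-Pro and Ent-Pro, and DHS likewise. Nothing in the labels says that replicates came from separate animals. Peak lists hold no expression values, so the labelled cell types could not be checked against marker genes.

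In the intestinal crypt, dividing progenitors choose between the absorptive fate, which yields enterocytes, and the secretory fate, which yields goblet, Paneth and enteroendocrine cells. Notch signalling holds Atoh1 off in future enterocytes, while ATOH1, a basic helix-loop-helix transcription factor, is required for the secretory fate. A DHS marks DNA that nucleosomes leave accessible, often a promoter or an enhancer. H3K4me2 lies on nucleosomes beside promoters and enhancers whether or not they are active, and H3K27ac lies beside those in use.

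The lists held 38595 DHS in Ent-Pro and 31980 in Sec-Pro, 15240 ATOH1 peaks, 68764 and 74483 H3K27ac peaks in Ent-Pro and Sec-Pro, and 63293 to 92279 H3K4me2 peaks. The read depth behind the lists is unknown, so a missing peak does not show that a site lacked the mark. The shortest H3K4me2 peak measured 200 bp in Sec-Pro replicate 1 (Rbpj-/-) and Ent-Pro replicate 2, and less than 200 bp in ISC, Sec-Pro replicate 2 (DBZ), Ent-Pro replicate 1, GOB and ENT. Comparisons of the progenitors are therefore also given within each kind of list. Brackets give 95% intervals, by Wilson's method for single shares. They cover counting error over sites only, and since sites are not replicates and most readouts have 1 library per cell type, they do not compare the conditions. No test between cell types was possible with 1 library on each side.

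The Ent-Pro-only sites were weak and narrow members of their list. Their score, the authors' own value for the strength of a peak, had a median of 8.24 (quartiles 6.52 and 10.6, highest 71.4), against 25.6 at shared sites without ATOH1. Their median width was 230 bp (range 200 to 767 bp), against 415.5 bp at shared sites. A width of exactly 200 bp, the shortest in the list, was found at 2474 Ent-Pro-only sites (22.9%) and at 3.24% of shared sites. When all Ent-Pro DHS were ranked by score, the Ent-Pro-only sites made up 65.6% of the lowest quintile (5064 sites), 47.5% of the next (3706 sites), 23.0% of the middle quintile (1752 sites), 3.77% of the fourth (291 sites) and none of the highest. The 697 sites absent from the Sec-Pro list that ATOH1 overlapped had a median score of 10.6. The selection used these peaks, so scores and widths are a description without a test.

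Most sites lay far from the boundary of the rule. The nearest Sec-Pro DHS was at a median distance of 12.1 kb, and 1078 sites (9.97%) had one within 1 kb. The nearest ATOH1 peak was at a median of 29.3 kb, with 462 sites (4.27%) within 1 kb. Just inside the rule, 113 Ent-Pro-only sites had a Sec-Pro DHS within 100 bp, and these had a median score of 8.44 and H3K27ac in Ent-Pro at 44.2%. Just outside it, 107 Ent-Pro DHS without ATOH1 were overlapped by a Sec-Pro DHS over at most 100 bp, and these had a median score of 6.86 and H3K27ac in Ent-Pro at 11.2%. The smallest gap inside and the smallest overlap outside were both 2 bp.

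Histone marks were called at a minority of the Ent-Pro-only sites in each list. In Ent-Pro, H3K27ac overlapped 27.6% [26.8 to 28.4], and H3K4me2 overlapped 31.6% in replicate 1 and 27.5% in replicate 2. In Sec-Pro, where no DHS was called at these sites, H3K27ac still overlapped 23.9% [23.1 to 24.7], and H3K4me2 26.0% (Rbpj-/-) and 31.5% (DBZ). ISC had the lowest H3K4me2 share, 17.1%, while GOB and ENT had 31.5% and 30.7%. The 2 H3K4me2 libraries of a progenitor differed by 4.17 points in Ent-Pro and 5.45 points in Sec-Pro, and in both the list that held peaks shorter than 200 bp had the larger share.

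Shared sites without ATOH1 carried each mark far more often, from 44.2% for H3K27ac in Sec-Pro to 65.7% for H3K4me2 in GOB, but they also had far higher DHS scores. When the shared sites were weighted, in 20 bins of the Ent-Pro DHS score, to the scores of the Ent-Pro-only sites, the order turned round in all 9 lists. At equal score, H3K27ac in Ent-Pro was found at 10.9% of shared sites, which put the Ent-Pro-only sites 16.7 points higher [15.7 to 17.7], whereas unweighted they were lower (a difference of -19.3 points). For H3K27ac in Sec-Pro the difference at equal score was 14.0 points [13.1 to 14.97]. The H3K4me2 differences at equal score were smaller, between 4.48 points in ISC and 10.3 points in Ent-Pro replicate 2. They are averages over mostly weak sites. From the lowest to the middle quintile of score, Ent-Pro-only sites had the higher share in all 7 H3K4me2 lists. In the fourth quintile they had the lower share in all 7, from 53.6% against 72.8% in ISC to 88.3% against 89.4% in DBZ-treated Sec-Pro. Scores were not equal within that quintile, where shared sites were stronger. Its lowest score bin, with a median score of 28.6, held 176 of 291 Ent-Pro-only sites but 1459 of 5926 shared sites. The fourth quintile therefore does not show the order at equal score. H3K27ac thus stood further apart from shared sites of like score than H3K4me2 did, in the Sec-Pro list as well as in the Ent-Pro list. The 4395 Sec-Pro DHS that were absent from Ent-Pro and without ATOH1 had fewer marks than the Ent-Pro-only sites in all 9 lists. H3K27ac covered 7.30% of them in Ent-Pro and 7.10% in Sec-Pro. Their median score, on the scale of the Sec-Pro list, was 8.81, and their median width 217 bp. They are not an exact counterpart. ATOH1 was mapped in Sec-Pro alone, so leaving out its sites was not symmetric, and no comparison with them at equal score was made. The 697 sites with ATOH1 that Sec-Pro lacked had H3K27ac at 70.2% in Ent-Pro and 61.5% in Sec-Pro.

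**Figure D1:**
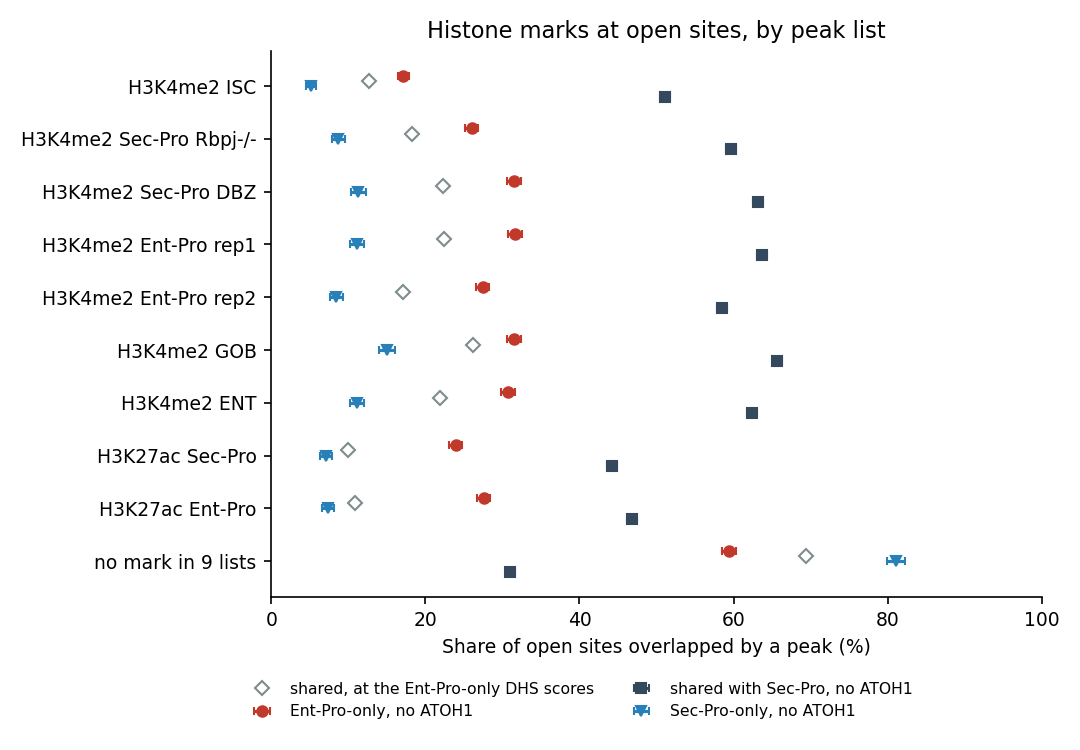
Share of sites (%, horizontal axis) overlapped by a peak of each of 9 histone mark lists, and with no mark in any (lowest line), for Ent-Pro-only sites (circles), shared sites without ATOH1 (squares), Sec-Pro-only sites without ATOH1 (triangles) and shared sites weighted to the DHS scores of the Ent-Pro-only sites (open diamonds). Bars are Wilson 95% intervals. In all 9 lists the circles lie below the squares and above the diamonds, and for H3K27ac in Ent-Pro they stand at 27.6%, 46.9% and 10.9%.

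The share with H3K27ac in Ent-Pro was higher at stronger open sites. It was 16.3%, 25.0%, 56.4% and 83.8% of Ent-Pro-only sites in the lowest to the fourth quintile of the list by score, against 6.41%, 11.2%, 22.1% and 61.4% of shared sites in the same quintiles. Ent-Pro-only sites had the higher share in 16 of 16 score bins that held both, although only 1 site fell in the highest of these. In the bin with a median score of 22.2, for example, H3K27ac marked 77.3% [72.0 to 81.8] of 277 Ent-Pro-only sites and 30.7% [28.4 to 33.2] of 1420 shared sites. Width gave a less uniform picture, although DHS scores were not held equal within the classes of width. H3K27ac marked 15.4% of Ent-Pro-only sites of 200 bp and 7.53% of shared sites of that width, 24.9% and 12.6% above that and up to 250 bp, 33.3% and 21.2% above 250 and up to 300 bp, and 41.6% and 36.1% above 300 and up to 400 bp. Among sites above 400 and up to 800 bp the order was the reverse, with 51.2% [45.5 to 56.9] of 289 Ent-Pro-only sites and 63.6% [62.6 to 64.6] of 8361 shared sites. For H3K4me2 in Ent-Pro it was already the reverse above 300 and up to 400 bp. There replicate 1 marked 46.7% of Ent-Pro-only and 53.6% of shared sites, and replicate 2 marked 42.2% and 46.4%.

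**Figure D2:**
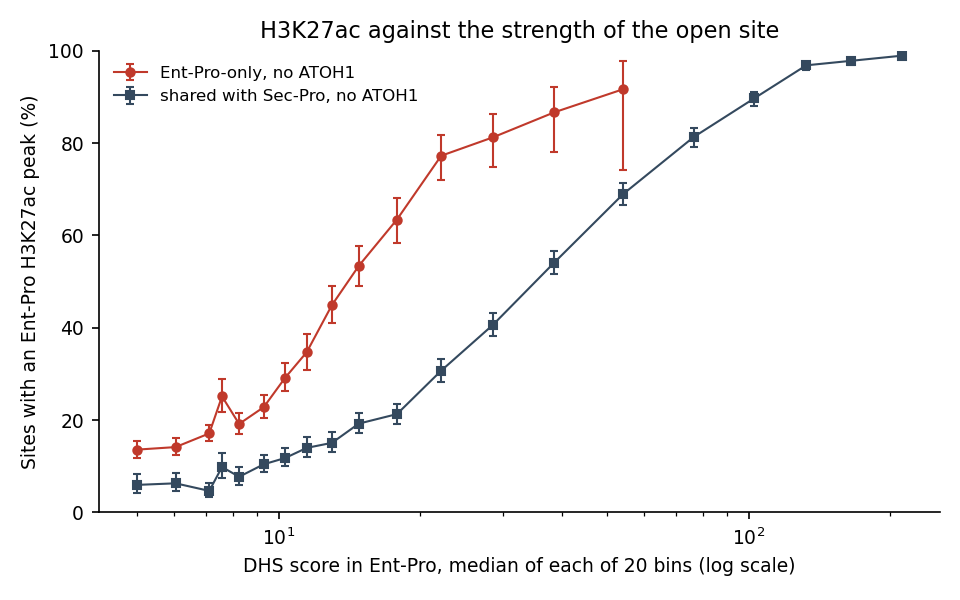
Share of sites with an H3K27ac peak in Ent-Pro (%, vertical axis) in 20 bins of the Ent-Pro DHS score (horizontal axis, log scale, at the median score of each bin), for Ent-Pro-only sites (circles) and shared sites without ATOH1 (squares). Bars are Wilson 95% intervals, and bins with under 20 sites of a kind are left out. The circles lie above the squares in all 15 bins drawn for both.

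The first comparison of the lineages was that of H3K27ac in Ent-Pro with Sec-Pro. Both progenitors had an H3K27ac peak at 2445 Ent-Pro-only sites (22.6%), against 41.8% of all Ent-Pro DHS and 8.77% of shared sites at equal score. Ent-Pro alone had it at 539 sites (4.98% [4.59 to 5.41], against 4.25% of all Ent-Pro DHS), and Sec-Pro alone at 142 sites (1.31% [1.12 to 1.55], against 1.13% of all Ent-Pro DHS). Both shares were little above those over all DHS. There were 3.80 sites acetylated in Ent-Pro alone for each acetylated in Sec-Pro alone, against 3.75 over all Ent-Pro DHS and 3.53 at shared sites. At the scores of the Ent-Pro-only sites, shared sites were acetylated in Ent-Pro alone at 2.15% [1.86 to 2.44] and in Sec-Pro alone at 1.14% [0.900 to 1.37]. The Ent-Pro share exceeded that of Sec-Pro by 3.67 points [3.20 to 4.14] at Ent-Pro-only sites and by 3.11 points [2.89 to 3.34] at all Ent-Pro DHS. The excess at Ent-Pro-only sites was 2.05 points when both H3K27ac lists were shortened to the same covered length, and 8.94 points among sites in the upper 50% of the Ent-Pro DHS list by score. Of the Ent-Pro-only sites with H3K27ac in Ent-Pro, 81.9% also had it in Sec-Pro, compared with 92.2% of such shared sites without weighting and 80.0% at equal score (difference from the latter 1.92 points [-0.96 to 4.80]).

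The acetylated domains were somewhat narrower than those at shared sites and wider than the list as a whole. The second contrast can arise from the way these peaks were picked, since a wide peak is more readily overlapped by a site. The 2984 Ent-Pro-only sites with H3K27ac in Ent-Pro lay in 2885 separate peaks with a median width of 1300 bp, where all peaks of that list had a median of 555 bp and those holding shared sites 1473 bp. A shared DHS lay in the same H3K27ac peak for 370 of the sites (12.4%), and 29 of these 370 were acetylated in Ent-Pro alone. The other 2614 sites had no shared DHS in their peak, and 510 of them (19.5%) were acetylated in Ent-Pro alone. Over all Ent-Pro DHS, 1639 of the 17774 with H3K27ac in Ent-Pro had it there alone. The 370 sites lay in wider peaks than the 2614, with medians of 2743 and 1160.5 bp, and had median DHS scores of 11.9 and 10.5. The groups thus differed in more than the shared DHS.

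H3K4me2 was the only mark with 2 libraries for each progenitor. It covered 29.6% ± 2.95 (SD, n = 2) of Ent-Pro-only sites in Ent-Pro and 28.7% ± 3.85 (SD, n = 2) in Sec-Pro. The ranges overlapped, and the difference of 0.80 points was smaller than the spread within either progenitor (exact two-sided permutation p = 0.667, where 0.333 is the smallest that 6 assignments allow). That spread is not one between like replicates. In each progenitor the 2 libraries differed in the kind of list, and in Sec-Pro also in preparation (Rbpj-/- or DBZ). The permutation took no account of this. Between the lists that held peaks shorter than 200 bp the difference, Ent-Pro minus Sec-Pro, was 0.17 points [-0.26 to 0.59], and between those that held none it was 1.44 points [1.01 to 1.88]. Shared sites gave 0.54 and -1.16 points in the same pairs. The sign of the difference depended on single libraries: with the Rbpj-/- library of Sec-Pro left out it was -1.92 points, with the DBZ library left out 3.53 points, and with replicate 1 or replicate 2 of Ent-Pro left out -1.28 or 2.89 points. A peak in both Ent-Pro libraries and neither Sec-Pro library was found at 43 Ent-Pro-only sites (0.398% [0.295 to 0.535], against 0.236% of all Ent-Pro DHS), and the opposite at 22 sites (0.203% [0.134 to 0.308], against 0.153%). Of the 43 sites, 69.8% had H3K27ac in Ent-Pro and 53.5% had it in Sec-Pro. H3K4me2 was found in all 4 progenitor libraries at 2513 sites (23.2%), against 51.2% of all Ent-Pro DHS and 15.4% of shared sites at equal score. It was found in none of them at 7028 sites (65.0%), against 39.6% and 75.3%.

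The mature cells showed how many of these sites carried H3K4me2 in the villus. ENT had a peak at 30.7% and GOB at 31.5% of the Ent-Pro-only sites, a difference of -0.73 points [-1.23 to -0.23]. Among the 940 sites in the upper 50% of the list by score it turned to 1.28 points [-0.68 to 3.23], and among sites more than 1 kb from any Sec-Pro DHS or ATOH1 peak it was -0.18 points [-0.71 to 0.35]. Over all Ent-Pro DHS the same difference was -2.60 points, and at shared sites of equal score it was -4.32 points. At the sites absent from the Sec-Pro list but overlapped by ATOH1 it was -8.32 points [-10.6 to -6.05]. Of those sites, 6 had the mark in ENT alone and 64 in GOB alone. Among these sets, the deficit of ENT was smallest at the Ent-Pro-only sites. With ATOH1 disregarded in the selection, the difference was -1.19 points [-1.68 to -0.698], so the small deficit depended in part on leaving out sites with ATOH1. The mark was found in ENT but not GOB at 345 Ent-Pro-only sites (3.19% [2.88 to 3.54]). That was above the 1.48% of all Ent-Pro DHS and the 1.31% [1.05 to 1.58] of shared sites at equal score. The opposite, with the mark in GOB but not ENT, was found at 424 sites (3.92% [3.57 to 4.30]), near the 4.08% of all Ent-Pro DHS and below the 5.64% [5.12 to 6.15] of shared sites at equal score. Of the 571 Ent-Pro DHS with the mark in ENT alone, 60.4% were Ent-Pro-only sites, and of the 1573 with the mark in GOB alone, 26.95%. The Ent-Pro-only sites made up 28.0% of all Ent-Pro DHS.

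**Figure D3:**
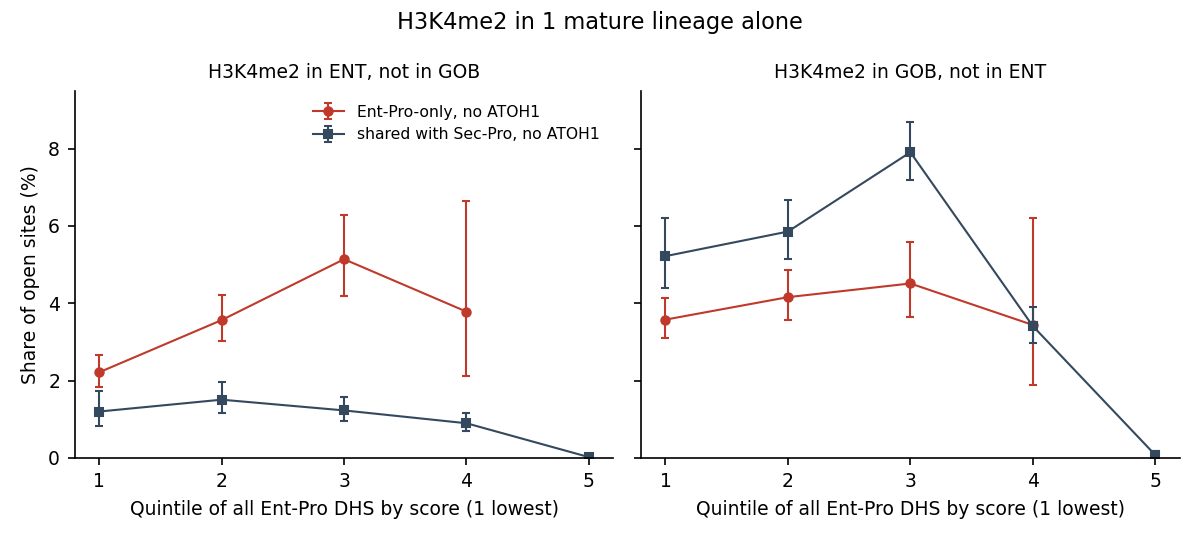
Share of sites (%, vertical axis) carrying H3K4me2 in ENT but not GOB (left) or in GOB but not ENT (right), by quintile of all Ent-Pro DHS ranked by score (horizontal axis), for Ent-Pro-only sites (circles) and shared sites without ATOH1 (squares). Bars are Wilson 95% intervals. In the middle quintile, ENT alone marked 5.14% of Ent-Pro-only and 1.23% of shared sites, and GOB alone marked 4.51% and 7.90%, and no Ent-Pro-only site lay in the highest quintile.

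The difference between ENT and GOB had opposite signs at sites with and without H3K27ac in the progenitors. Of the 2445 Ent-Pro-only sites acetylated in both progenitors, ENT marked 88.3% and GOB 86.1% (difference 2.21 points [0.99 to 3.43]), with 143 sites in ENT alone and 89 in GOB alone. Among 9722 shared sites in the same state the difference was -0.14 points, with 37 in ENT alone and 51 in GOB alone. These shared sites had a median DHS score of 93.8, against 10.6 at the Ent-Pro-only sites. ENT marked 98.8% and GOB 98.9% of them, which left little room for a difference. Shared sites were not weighted to equal score in the comparisons by acetylation. Of the 7687 sites acetylated in neither, ENT marked 9.68% and GOB 11.6% (difference -1.94 points [-2.45 to -1.42]), with 132 sites in ENT alone and 281 in GOB alone. Among 11729 shared sites acetylated in neither it was -6.00 points, with 133 and 837 sites, so the difference was lower without acetylation at shared sites too. The 539 sites acetylated in Ent-Pro alone were marked at 61.8% by ENT and at 61.6% by GOB (difference 0.19 points [-3.24 to 3.62]), where shared sites in that state had a difference of -3.26 points [-5.22 to -1.31]. The 142 sites acetylated in Sec-Pro alone were marked at 62.7% by ENT and 52.1% by GOB (difference 10.6 points [2.58 to 18.5]), where shared sites had a difference of -1.28 points [-5.12 to 2.55].

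No histone mark was called in any of the 9 lists at 6424 Ent-Pro-only sites (59.4% [58.5 to 60.3], against 35.6% of all Ent-Pro DHS), and a mark in all 9 was called at 1243 (11.5%, against 34.5% of all Ent-Pro DHS and 38.1% of shared sites). The next most frequent pattern, at 491 sites, lacked H3K4me2 in ISC alone. By the number of H3K4me2 lists with a peak, 6588 sites had none (60.9%, against 36.4% of all Ent-Pro DHS). All 7 lists had a peak at 1600 sites (14.8%, against 43.6% of all Ent-Pro DHS). Each number between 2 and 6 lists held 267 to 823 sites, and 1 list held 487. H3K27ac in Ent-Pro was found at 2.02% of sites with no H3K4me2 list, 49.4% of those with 3 lists and 85.6% of those with 7. H3K27ac in Sec-Pro was found at 1.40%, 39.7% and 78.7% of the same sites. The median DHS score was 7.12 at sites with no H3K4me2 list and 11.2 at those with all 7.

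**Figure D4:**
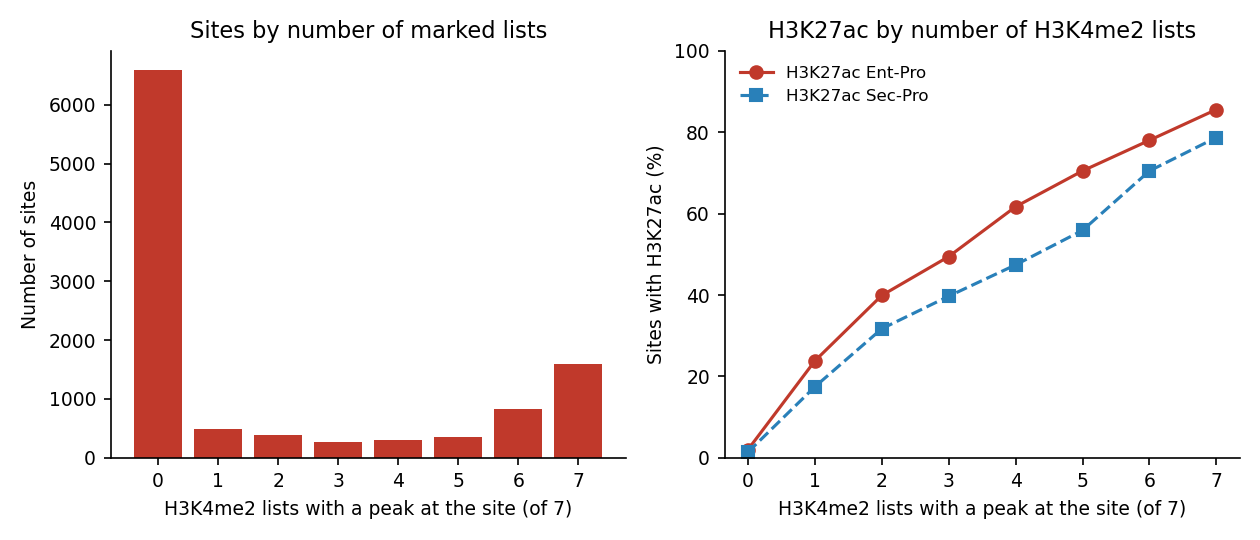
Left, the number of Ent-Pro-only sites (vertical axis) by how many of 7 H3K4me2 lists had a peak there (horizontal axis). Right, the share of these sites with H3K27ac (%) in Ent-Pro (circles) and Sec-Pro (squares), with most sites at 0 lists (6588) or 7 lists (1600) and H3K27ac in Ent-Pro going from 2.02% to 85.6%. Sites with 0 and 7 lists were 60.9% and 14.8% of Ent-Pro-only sites, against 36.4% and 43.6% of all Ent-Pro DHS.

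Within Ent-Pro itself, H3K4me2 in both libraries together with H3K27ac was found at 2333 sites (21.6%), H3K4me2 in both libraries without H3K27ac at 513 (4.74%), and neither mark at 6959 (64.4%). Shared sites, which had higher DHS scores, were in these states at 45.1%, 12.97% and 35.1%. The remainder had H3K4me2 in 1 library (342 sites with H3K27ac, 357 without) or H3K27ac without H3K4me2 (309 sites). These were 3.16%, 3.30% and 2.86% of Ent-Pro-only sites, against 0.96%, 5.08% and 0.80% of shared sites without weighting. Where both Ent-Pro libraries had H3K4me2, 82.0% of Ent-Pro-only sites had H3K27ac, against 53.9% of such shared sites at equal score (difference 28.1 points [25.2 to 30.9]). Without weighting, 77.7% of such shared sites had it, so the size of this gap depended on the weighting. The same Ent-Pro-only sites had H3K4me2 less often in the other cells than those shared sites had: in ENT at 92.8% against 96.0%, in GOB at 90.6% against 96.5% and in ISC at 61.2% against 70.7%. The differences were -3.17 [-4.58 to -1.76], -5.94 [-7.48 to -4.41] and -9.47 [-12.4 to -6.55] points. Without weighting, the shared sites had 98.9%, 99.2% and 86.7%.

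The 6424 sites without any called mark were the weakest, with a median DHS score of 7.12 and a median width of 220 bp. Their share was 72.3% of Ent-Pro-only sites in the lowest quintile of the list by score, then 61.1%, 27.6% and 5.50% in the following quintiles. At equal score, 69.4% of shared sites had no mark, and the difference, Ent-Pro-only minus shared, was -10.04 points [-11.3 to -8.74]. By width, with DHS scores not held equal, the order changed. Above 250 and up to 300 bp, 51.0% of Ent-Pro-only and 59.2% of shared sites had no mark. Above 300 and up to 400 bp it was 44.9% and 38.6%. Few of the unmarked sites lay at the edge of a marked domain: 12.9% had a mark peak of any list within 1 kb, and 58.0% within 10 kb, with a median distance of 7.53 kb. The shared sites without a mark had nearly the same median distance, 6.53 kb, and 13.5% of them had a mark peak within 1 kb.

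Around the site centres, the marks formed a narrow hill. H3K27ac in Ent-Pro covered 22.6% of the centres of Ent-Pro-only sites, 20.6% of positions at 500 bp on either side and 7.23% at 3000 bp, and the highest value, 23.6%, lay 250 bp from the centre. Shared sites at equal score had 9.24%, 7.40% and 4.23% at the same places. H3K4me2 in Ent-Pro replicate 1 covered 24.2% of centres and 27.1% at 200 bp to one side. In the mature cells the highest coverage lay on the centre itself, 26.4% in ENT and 28.2% in GOB. Among Ent-Pro-only sites with H3K27ac on both sides within 500 bp, the centre was uncovered at 11.1% [9.97 to 12.3] in Ent-Pro and 17.8% [16.4 to 19.4] in Sec-Pro, so a dip over the site was called in the Sec-Pro list too, where no DHS was called. Shared sites had 6.11% in Ent-Pro and 10.2% in Sec-Pro, and at equal score 4.98% and 9.18%. For H3K4me2 this share was 27.6% in ISC, 16.3% and 13.4% in Ent-Pro replicates 1 and 2, 15.8% and 16.9% in Sec-Pro replicates 1 and 2, 9.21% in ENT and 5.02% in GOB. At shared sites it was higher than this in ISC (50.3%), Ent-Pro (17.7% and 26.4%) and Sec-Pro (25.6% and 23.8%) and lower in ENT (7.40%) and GOB (2.48%). At equal score shared sites had lower values than the Ent-Pro-only sites in all 7 lists, among them 18.5% in ISC and 6.72% and 2.73% in Ent-Pro.

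**Figure D5:**
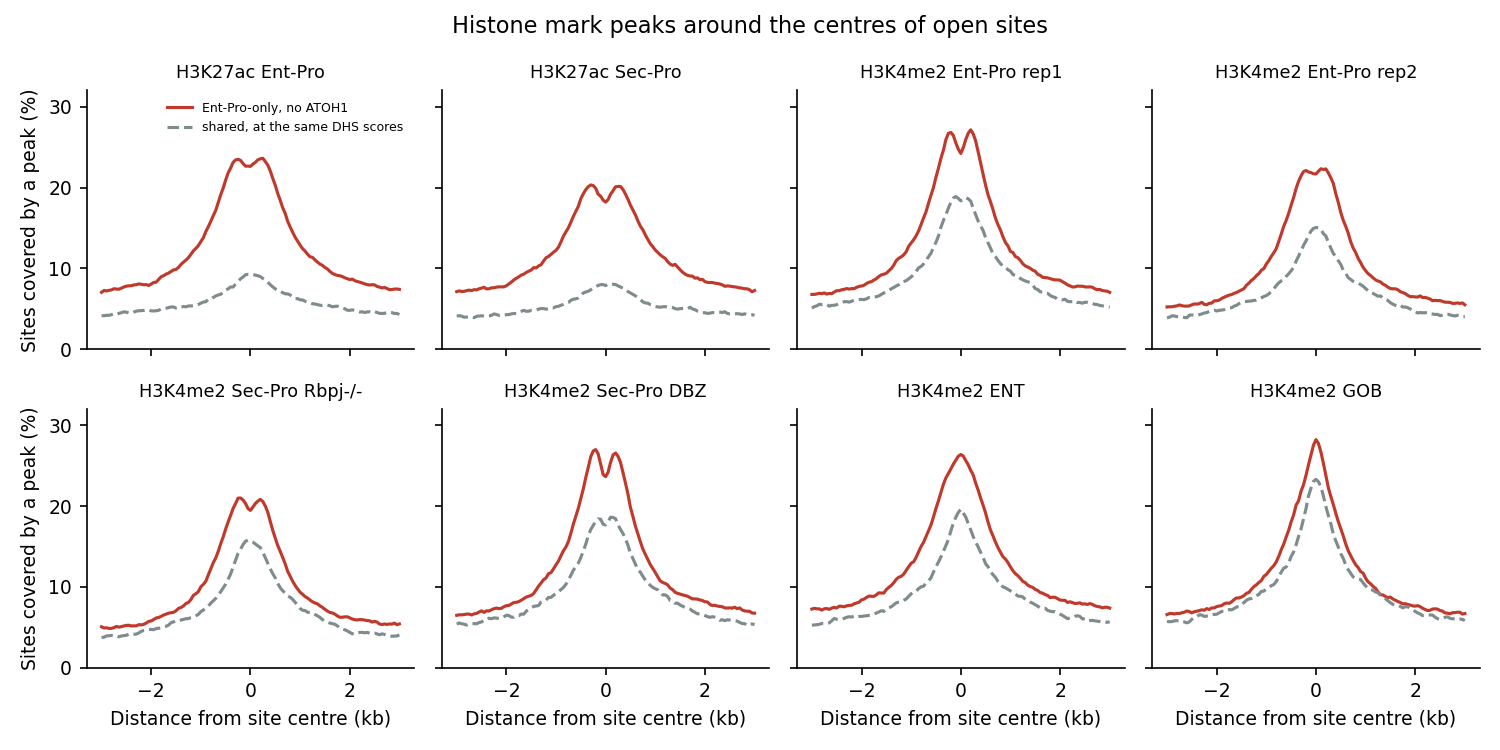
Share of sites covered by a mark peak (%, vertical axis) by distance from the site centre (kb, horizontal axis), for Ent-Pro-only sites (solid) and shared sites weighted to the same DHS scores (dashed), in 8 of the 9 mark lists (ISC is not drawn). The solid line is above the dashed one at the centre in all 8 panels, by the most for H3K27ac in Ent-Pro (22.6% against 9.24%), and it dips at the centre in the progenitor lists but not in ENT and GOB.

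Most of the 8 strongest Ent-Pro-only sites had marks in nearly all lists. They do not stand for the whole set, of which 59.4% had no mark and 11.5% had all 9. Positions are 1-based on mm9, and none was set against genes, since no gene annotation of that build was used here. The highest score, 71.4, belonged to chr19:7385208-7385562, which had a peak in all 9 mark lists and whose nearest Sec-Pro DHS lay 15.4 kb away. All 9 lists also marked chr6:34426067-34426455 (score 56.4), chr10:80608586-80608919 (53.6), chr5:93317809-93318140 (52.2) and chr7:36019719-36020047 (50.6). The site at chr17:28649630-28649995 (63.2) lacked only ENT, and chr11:78945504-78945843 (54.4) lacked only ISC. The remaining site, chr15:94490621-94490903 (score 56.1), differed from these: it had H3K27ac in Ent-Pro and not in Sec-Pro, H3K4me2 in both Ent-Pro libraries and in DBZ-treated Sec-Pro, and none in ISC, GOB or ENT. Its nearest Sec-Pro DHS was 30.6 kb away. Even the strongest Ent-Pro-only site held only rank 9075 among all Ent-Pro DHS.

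Some sites had a mark in Ent-Pro and not in the matching Sec-Pro list. Several of them had other marks in Sec-Pro or GOB. After the chromosome 15 site, the strongest site with H3K27ac in Ent-Pro alone was chr11:108964188-108964501 (score 47.6), with H3K4me2 in Ent-Pro replicate 1 and DBZ-treated Sec-Pro. Next came chr10:79260955-79261275 (score 45.0), with H3K4me2 in Ent-Pro replicate 1, Rbpj-/- Sec-Pro, GOB and ENT, and chr12:52100640-52100961 (score 44.8). The last lay 348 kb from any Sec-Pro DHS and had H3K4me2 in all lists but ISC. H3K4me2 in both Ent-Pro libraries and neither Sec-Pro library was strongest at chr8:26338737-26339046 (score 27.5) and chr9:31532189-31532506 (score 22.4), which had no other mark. It was also found at chr7:35814385-35814679 (score 26.5), with both H3K27ac lists, GOB and ENT, and at chr11:70419585-70419867 (score 21.7), with H3K27ac in Ent-Pro and H3K4me2 in ENT but not in GOB.

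Of the sites marked by H3K4me2 in ENT but not GOB, the strongest were chr5:136872105-136872425 (score 42.0) and chr8:47917676-47918019 (38.1), both acetylated in both progenitors, chr19:32092556-32092871 (40.7), acetylated in Ent-Pro alone, and chr3:142156559-142156877 (37.3), acetylated in neither. The strongest with the opposite pattern were the chromosome 17 site above, chr4:131912219-131912548, chr8:27965023-27965357 (36.8) and chrX:33930386-33930718 (31.6), all 4 acetylated in both progenitors. Sites without any mark reached scores of 36.0 at chr7:31705252-31705565, 35.2 at chr3:93164032-93164365, and 31.2 at both chr1:94433645-94433978 and chr9:31385325-31385658. Strength of the open site therefore did not always come with a called mark. The 3 widest sites, chr1:74460979-74461745 (767 bp), chr19:26822093-26822812 (720 bp) and chr13:30077694-30078326 (633 bp), had scores of 15.8, 16.1 and 21.2 and a peak in all 9 lists, and the last lay 0.173 kb from a Sec-Pro DHS.

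The Ent-Pro-only sites were scattered over the genome. They made up 21.9% of Ent-Pro DHS on the X chromosome and between 25.0% (chromosome 15) and 31.4% (chromosome 16) on the autosomes. The next Ent-Pro DHS of any kind lay at a median distance of 9.46 kb. It was nearer, at 5.40 kb, for the 1600 sites with H3K4me2 in all 7 lists, and farther, at 11.3 kb, for those without any mark. When sites within 10 kb of each other were joined, 8448 (78.1%) stood alone, 1814 stood in pairs and 551 in stretches of 3 or more. H3K27ac in Ent-Pro was found at 25.8% of the lone sites, 33.6% of those in pairs and 35.4% of those in longer stretches, whose median scores were 8.24, 8.24 and 8.32. The longest stretch, chr11:117904660-117950382, held 7 Ent-Pro-only sites and 1 shared DHS, and 6 of the 7 had no mark. Stretches of 5 at chr5:141219985-141236008 and chr7:4871025-4902884 each had 4 sites without a mark and 1 with H3K27ac in both progenitors.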

How the data were processed

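A total of 12 lists of peaks were used, 1 per library, without pooling. The submitters' processing notes name MACS2, Bowtie 0.12.7, CASAVA 1.7 and build mm9. No parameters are stated in the labels or files, nor how input DNA was used, and the 3 input samples were not analysed here. The authors deposited for each peak its position and a score, which the files do not name. The score served only to rank, bin or describe peaks within 1 list. Read depth is unknown.

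Overlaps of at least 1 bp were counted with NumPy 2.4.6 under Python 3.11.15 (SciPy 1.17.1 for intervals, matplotlib 3.10.9 for plots). Shares at equal score are means over 20 quantile bins of the Ent-Pro DHS score, weighted by the number of Ent-Pro-only sites in each. Width was grouped in 5 classes in place of quintiles, since many sites measured 200 bp. Counting was tested on simulated data. H3K4me2 was compared between progenitors by an exact permutation test over 4 libraries. Regions named are the 8 of highest DHS score, the 4 highest with each stated combination of marks, and the 3 widest sites and the 3 stretches with the most sites, with chromosome 18 and unplaced contigs left out. The sites and these lists and rules were chosen with earlier results of these data known. Alternatives were other overlap rules, distances, score limits, autosomes, lists of equal size, and libraries left out. Sequences, motifs and genes were not analysed here, since no mm9 genome or annotation was used.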

Additional observations from a re-analysis of the deposited data

How the results depend on the processing

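In 70 alternatives to 7 results, 25 values stayed within the counting interval of the reported value (for the count of sites, within 1.5 times), 29 moved without turning, and 3 turned. The other 13 belong to H3K4me2 in Ent-Pro minus Sec-Pro, which has no counting interval. They kept its sign while ranging from 0.17 to 3.53 points around the reported 0.80. The number of sites fell from 10813 to 940 in the upper 50% of Ent-Pro DHS by score and to 6302 when that list was shortened to the number of Sec-Pro DHS. In these same 2 settings the share with H3K27ac in Ent-Pro was 73.8% and 36.5%, its excess over Sec-Pro 8.94 and 5.01 points, the unmarked share 12.4% and 49.2%, and the excess over shared sites at equal score 41.7 and 21.7 points. ENT minus GOB turned to 1.28 points [-0.68 to 3.23] in the upper 50%. At more than 1 kb from any Sec-Pro DHS or ATOH1 peak, the values were 25.3% (H3K27ac share), 62.8% (unmarked), 14.7 points (equal score) and -0.18 points (ENT minus GOB). When sites overlapped over less than 50% by a Sec-Pro DHS or an ATOH1 peak were also counted, 28.5% had H3K27ac and 58.3% no mark. With ATOH1 disregarded, the values were 30.2% and 56.8%. A mark covering at least 50% of the site gave 23.1%, 4.23 points (Ent-Pro minus Sec-Pro), -1.54 points (ENT minus GOB), 62.9% unmarked and 13.8 points at equal score. Sites extended by 500 bp gave 31.7% with H3K27ac, 2.56 points and 54.7% unmarked. H3K27ac lists of equal covered length gave 2.05 points. With 5 score bins the excess at equal score was 15.5 points, and with 10 bins crossed with 5 width classes, chosen after seeing the data, 15.3 points.

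Leaving out each progenitor H3K4me2 library in turn moved Ent-Pro minus Sec-Pro between -1.92 points (without Sec-Pro replicate 1) and 3.53 points (without Sec-Pro replicate 2), and to -1.28 points without Ent-Pro replicate 1. These signs followed the kind of list left out: without the Sec-Pro library whose shortest peak was 200 bp, or without the Ent-Pro library that held shorter peaks, the difference was negative. The unmarked share stayed between 59.5% and 60.1%. Libraries could be paired only by kind of list, because the Sec-Pro labels carry no replicate numbers. The 2 Sec-Pro H3K4me2 libraries also came from different preparations. All alternatives listed beforehand were run, and a look at motifs and genes was not run for want of an mm9 genome and annotation here. Unknown depth, 1 library for most readouts and a DHS selection that favours weak sites limit all values.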
